A study of Danio rerio with 6 samples.

Results

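The gene described here is ACOD1 (ENSDARG00000069844), 1 of the 25130 gene identifiers counted in sorted fluorescent cells of larval zebrafish. It was selected on values already measured in these files (its level over time, in granulocytes and in mmp13a-positive cells, and the genes that go with it in a cell), so those values are descriptions and carry no test. ACOD1 encodes aconitate decarboxylase, a mitochondrial enzyme that takes cis-aconitate out of the tricarboxylic acid (TCA) cycle and turns it into itaconate. In mice and humans the gene is switched on strongly in activated macrophages, and itaconate inhibits succinate dehydrogenase and modifies KEAP1, which releases the oxidative stress factor NRF2. In zebrafish a gene called acod1 or irg1 has been tied to fatty acid oxidation and the production of reactive oxygen in infected macrophages. The identifier counted here takes the human symbol ACOD1 from the name table, and the tables used here do not tie it to the zebrafish gene by an identifier.

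Cells came from TL strain larvae carrying Tg(mpeg1:mCherry), a transgene that makes mpeg1-expressing cells, mostly macrophages, fluoresce red. All groups, the uninjured included, carried it and were kept in PTU, which blocks pigment. In the 3 injured groups a needle puncture was made in the dorsal myotome (trunk muscle) of larvae aged 4 days. Live mCherry-positive cells were sorted from the tissue dissected around the wound after 1, 2 or 3 days (dpi, days post injury), when larvae were aged 5, 6 and 7 days. The uninjured group was whole larvae of 4 days. Each of the 6 libraries was a 384-well plate, with 2 plates at 1 dpi, 1 at 2 dpi, 2 at 3 dpi and 1 uninjured plate, and the labels do not say whether replicate plates came from separate larvae. Tissue source and library cannot be told apart from injury in the uninjured group, nor larval age from time after injury.

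Of 2304 wells, 1820 held at least 500 transcripts and were kept, 209 to 364 in a library, with 1362383 to 8340924 transcripts in all and a median of 3016 to 10897.5 per well. The uninjured library stands apart: 18 wells above 50000 transcripts held 70.1% of its transcripts. The label of the cells is macrophage, but the sort also held granulocytes, which were recognised from 4 gate genes (npsn, a secreted protease, both identifiers named EPX, a peroxidase, and scpp8). Wells in which these genes gave at least 5 of 1000 transcripts are called granulocyte-gated. Among the rest, wells with at least 5 of 1000 transcripts from macrophage genes (the MPEG1, marco and MFAP4 identifiers and others) are called macrophage-gated, and wells with at least 20 of 1000 from keratinocyte genes keratinocyte-gated. Wells that met none of these are called ungated, and are not named as a cell type.

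ACOD1 was abundant early after injury and lower at 3 dpi. Summed over kept wells and scaled to a common library total (CPM), it had 377 CPM in the uninjured library, 1765 and 1744 CPM at 1 dpi, 1607 CPM at 2 dpi, and 807 and 676 CPM at 3 dpi. At 3 dpi both libraries were below both libraries of 1 dpi, with means of 741 ± 92.5 CPM at 3 dpi and 1754 ± 15.3 CPM at 1 dpi (SD, n = 2 each), a difference of -1.25 on the log2 scale. The lone 2 dpi library lay between them, closer to 1 dpi. Exact Poisson 95% intervals, which cover counting error only, ran from 1695 to 1837 and from 1682 to 1807 CPM at 1 dpi, so the 1 dpi replicates overlapped each other, whereas those of 3 dpi (760 to 855 and 634 to 719 CPM) did not. A sum per library cannot tell fewer cells with the transcript from fewer transcripts per cell.

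The place of the uninjured library in this order depends on its very large wells. Without wells over 50000 transcripts it had 1100 CPM, above both 3 dpi libraries and below the libraries of 1 and 2 dpi. The 18 wells left out held 403 of its 3147 ACOD1 transcripts. Averaged over the injured times, ACOD1 was 1.76 above the uninjured library on the log2 scale with these wells and 0.22 above it without them.

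Counted by well, each kept well with at least 1000 transcripts was thinned at random to 1000, so that deep and shallow wells could be compared (1659 wells, 196 to 352 in a library). An ACOD1 transcript was then found in 40.1% of uninjured wells, in 55.6% and 60.7% of wells at 1 dpi, in 54.5% at 2 dpi, and in 31.9% and 29.3% at 3 dpi. By share of wells the 3 dpi libraries were the lowest, at 30.6% ± 1.8 against 58.2% ± 3.59 at 1 dpi (SD, n = 2 each), and the uninjured library lay above them. The Wilson 95% interval of the uninjured share, 34.7% to 45.8%, overlapped those of both 3 dpi libraries (26.4% to 37.9% and 24.5% to 34.7%), the second by less than 0.1 points. Before thinning, shares were 60.4% in the uninjured library, then 73.6% and 83.3% at 1 dpi, 80.5% at 2 dpi, followed by 48.9% and 46.2% at 3 dpi.

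**Figure D1:**
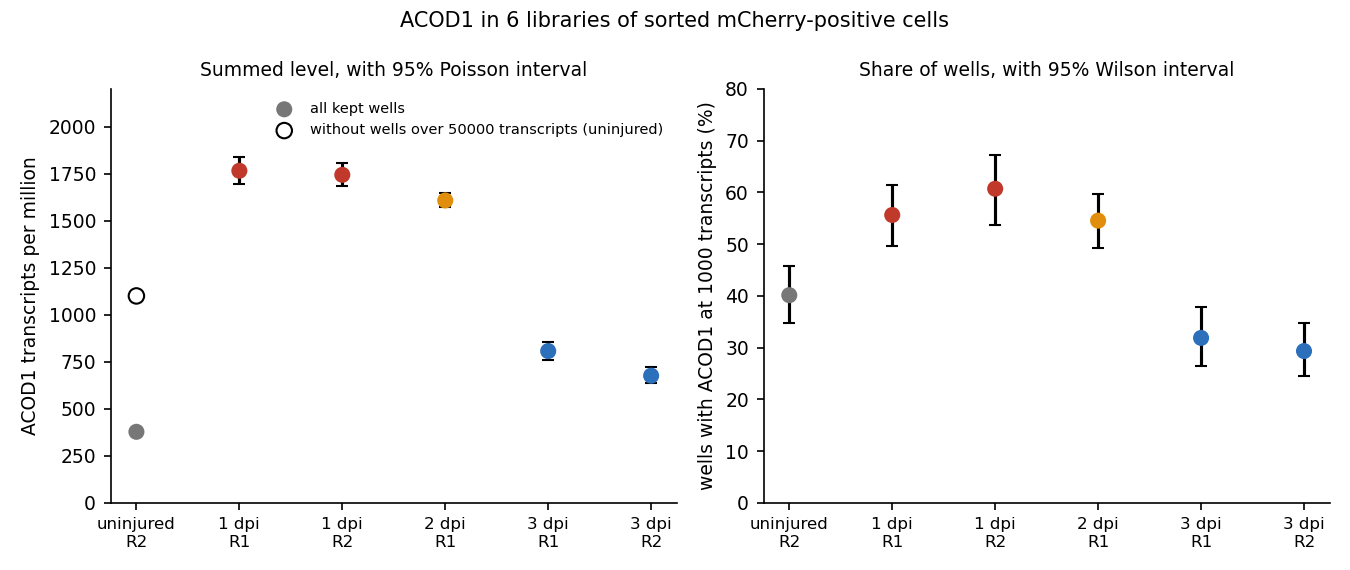
Left, ACOD1 in CPM summed over kept wells of each library, with exact Poisson 95% intervals, and an open circle for the uninjured library without wells over 50000 transcripts; right, the percent of wells with an ACOD1 transcript at 1000 transcripts per well, with Wilson 95% intervals. The 1 and 2 dpi libraries sit between 1607 and 1765 CPM and the 3 dpi libraries at 807 and 676 CPM, while the uninjured library moves between 377 and 1100 CPM with its large wells.

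ACOD1 was unevenly spread over wells. At 1000 transcripts a well held on average 0.918 ACOD1 transcripts in the uninjured library, then 1.54 and 1.64 at 1 dpi, 1.45 at 2 dpi, followed by 0.594 and 0.593 at 3 dpi. The variance over wells was 2.17 to 2.87 times the mean in the 6 libraries, where equal wells would give 1. If all wells of a library had its mean, counting would find the gene in 60.1% of uninjured wells, 78.5% and 80.6% at 1 dpi, 76.4% at 2 dpi and 44.8% in each 3 dpi library, in each case more than was seen. The tenth of kept wells richest in ACOD1 was taken from counts before thinning, where the depth of a well also enters. These wells held 58.0% of its transcripts in the uninjured library, then 53.1% and 37.5% at 1 dpi, 42.5% at 2 dpi, followed by 68.2% and 60.8% at 3 dpi. The richest well of a library held 35 to 218 ACOD1 transcripts before thinning. By summed thinned counts ACOD1 ranked 86th and 101st among all genes at 1 dpi, 104th at 2 dpi, 157th in the uninjured library, and 207th and 218th at 3 dpi.

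Granulocyte-gated wells held less ACOD1 than the other wells in each of the 5 injured libraries. Their share with an ACOD1 transcript was 38.1% and 22.2% at 1 dpi, 13.3% at 2 dpi, followed by 14.0% and 11.4% at 3 dpi, from 21, 18, 60, 50 and 70 wells. The other wells of the same libraries stood at 57.1% and 64.6%, 63.0%, and 36.3% and 34.8%. The difference was -31.4 points on average (SD 13.7 over 5 libraries) and lay between -49.7 and -19.05. The uninjured library had 4 granulocyte-gated wells, none with an ACOD1 transcript, which is too few for a share. Before thinning the granulocyte-gated shares were 61.9% and 44.4% at 1 dpi, 46.7% at 2 dpi, followed by 30.0% and 21.4% at 3 dpi, and the median total of these wells was 4218 transcripts, against 6580.5 in macrophage-gated wells and 6108 in ungated wells.

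Keratinocyte-gated wells were few and came mostly from the uninjured and 3 dpi libraries. Over all libraries 35 of 223 granulocyte-gated wells had an ACOD1 transcript (15.7%), and 2 of 30 keratinocyte-gated wells did (6.67%, median total 8125.5). These shares pool libraries of unlike level, as the granulocyte-gated share ran from 11.4% to 38.1% in the injured libraries. The pools also differ in makeup: of the 223 wells, 4 were uninjured. Of the 30, 12 were uninjured, 2 came from 1 dpi, 1 from 2 dpi and 15 from 3 dpi, and before thinning 13 of them had an ACOD1 transcript. The 12 uninjured ones were very deep, with a median total of 71594.5, and 83.3% of them had an ACOD1 transcript before thinning. The 18 of the injured libraries had a median total of 4415, and 3 had one. RNA free in the plate was not measured, and its part in these shares was not tested. Near the gate's threshold, 21 wells lay just inside it at 5 or 6 gate transcripts and 21 just outside at 3 or 4, out of 223 gated wells and 1284 wells with none.

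Macrophage-gated wells were the richest class in every library. Their share with an ACOD1 transcript was 62.4% in the uninjured library, then 66.7% and 77.0% at 1 dpi, 72.6% at 2 dpi, followed by 69.0% and 77.8% at 3 dpi. They averaged 73.4% ± 6.23 at 3 dpi and 71.9% ± 7.34 at 1 dpi (SD, n = 2 each), a gap smaller than the spread between replicates. In ungated wells the share was 33.2% in the uninjured library, then 51.3% and 58.1% at 1 dpi, 60.1% at 2 dpi, followed by 32.7% and 29.8% at 3 dpi. Here the 3 dpi libraries lay apart from those of 1 dpi, at 31.3% ± 2.06 against 54.7% ± 4.8.

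The makeup of the plates differed between the same times. Macrophage-gated wells were 10.3% ± 1.81 of wells at 3 dpi and 33.0% ± 2.72 at 1 dpi (SD, n = 2 each). Granulocyte-gated wells were 21.6% ± 2.41 at 3 dpi and 8.54% ± 0.911 at 1 dpi, and ungated wells 65.3% ± 1.03 at 3 dpi and 58.0% ± 2.34 at 1 dpi. The mean ACOD1 count per 1000 transcripts was 1.74 ± 0.366 at 3 dpi and 2.14 ± 0.235 at 1 dpi in macrophage-gated wells, against 0.585 ± 0.0198 at 3 dpi and 1.43 ± 0.0543 at 1 dpi in ungated wells. In macrophage-gated wells the spreads of 3 and 1 dpi overlapped, and in ungated wells they did not. The part of plate makeup in the lower sum at 3 dpi was not tested.

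**Figure D2:**
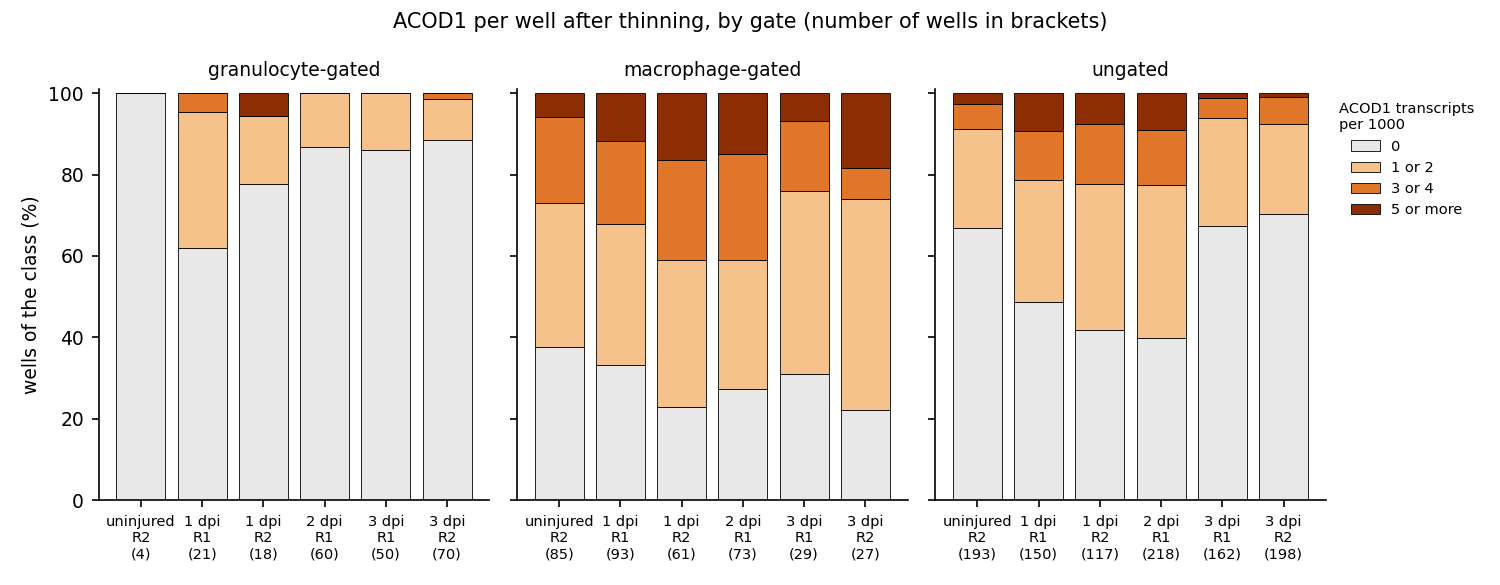
Percent of wells with 0, 1 or 2, 3 or 4, and 5 or more ACOD1 transcripts per 1000, for each library, in granulocyte-gated, macrophage-gated and ungated wells, with the number of wells in brackets. Wells with no ACOD1 fill most of each granulocyte-gated bar, a minority of each macrophage-gated bar, and more of the ungated bars at 3 dpi (67.3% and 70.2%) than at 1 dpi (48.7% and 41.9%).

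Wells rich in ACOD1 were found mainly outside the granulocyte gate. Wells with 5 or more ACOD1 transcripts per 1000 were 3.4% of uninjured wells, 9.4% and 10.2% at 1 dpi, 8.81% at 2 dpi, followed by 1.59% and 2.33% at 3 dpi. Of the 219 granulocyte-gated wells of injured libraries, 1 reached this level, at 1 dpi.

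The collagenase gene mmp13a (ENSDARG00000012395), whose product degrades fibrillar collagen, splits the cells in another way. In some libraries, though not in all, the sign of the split differed with and without granulocyte-gated wells. Over all wells, the ACOD1 share in mmp13a-positive wells against mmp13a-negative wells was 38.0% against 40.8% in the uninjured library, 59.8% against 52.3% and 56.0% against 62.3% at 1 dpi, 51.9% against 57.4% at 2 dpi, and 21.5% against 39.6% and 24.5% against 33.8% at 3 dpi. The mmp13a-positive wells were lower in 5 of 6 libraries, with a mean difference of -5.75 points, smaller in size than its SD over libraries (8.35). When mmp13a was read from the thinned counts the mean difference was -15.0 points.

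Granulocyte-gated wells were nearly all mmp13a-positive and made up 5.63% to 48.3% of the mmp13a-positive wells of a library. Outside the gate the mmp13a-positive wells had the higher ACOD1 share in 4 of 6 libraries. It was 64.6% against 52.3% and 75.8% against 62.1% at 1 dpi, 70.7% against 57.4% at 2 dpi, then 36.5% against 33.97% in the second 3 dpi library. The first 3 dpi library went the other way, with 27.1% against 40.1%, and in the uninjured library the shares were 40.3% and 40.8%. Within the gate the mmp13a-positive wells had shares of 38.1% and 17.6% at 1 dpi, 13.3% at 2 dpi, followed by 14.6% and 11.6% at 3 dpi. Depth before thinning moved with this split: outside the gate, median totals were 4419.5 to 14255 in mmp13a-positive wells and 2789 to 11025 in mmp13a-negative wells, and its part in the result was not tested.

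**Figure D3:**
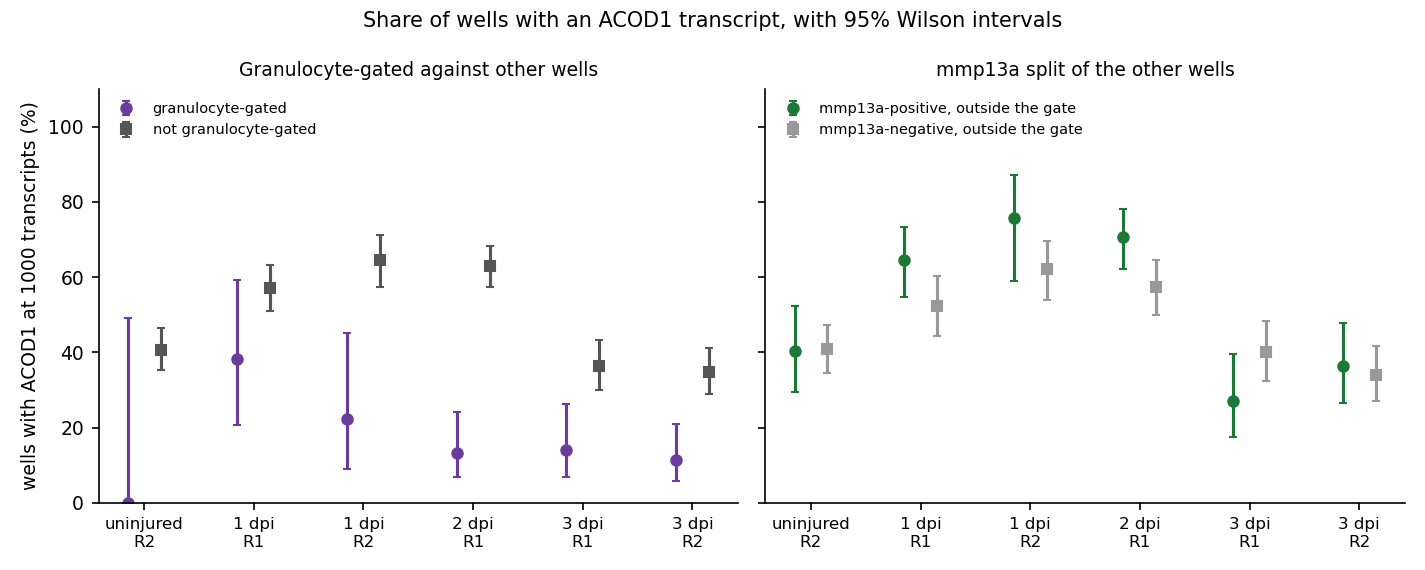
Percent of wells with an ACOD1 transcript at 1000 transcripts per well, with Wilson 95% intervals: left, granulocyte-gated wells beside the other wells of each library; right, mmp13a-positive beside mmp13a-negative wells outside the granulocyte gate. Granulocyte-gated wells lie 19.05 to 49.7 points below the others in the injured libraries, while the mmp13a split outside the gate has no common direction over the 6 libraries.

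The files also hold a gene named irg1l (ENSDARG00000062788), a relative of ACOD1 by its name. It was rare and uneven, with 37 transcripts in the uninjured library, then 6 and 0 at 1 dpi, 0 at 2 dpi, followed by 170 and 1 at 3 dpi, and 162 of the 170 came from 1 well. In the uninjured library 36 of its 37 transcripts were in 2 keratinocyte-gated wells, with 30 in 1 well. Of the 170 in the first 3 dpi library, 0 were in keratinocyte-gated wells, and none were in the other injured libraries. Reads that fit both genes could be counted for either, and the sources used here do not give the rule.

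The genes whose counts per well went most closely with ACOD1 were higher in macrophage-gated than in granulocyte-gated wells, and those that ran most against it were higher in granulocyte-gated wells. For npsn and EPX, which are granulocyte gate genes, and for MFAP4 (ENSDARG00000090783), a macrophage gate gene, the gates fixed this in advance. Pearson correlations of log2(count per 1000 + 1) were taken over the 196 to 352 wells of each library and averaged over 6 libraries for 2086 genes found in at least 5% of wells. The wells of a library share a plate, and the counts are sparse, so these values are descriptions. The median over genes was 0.0105, the 99th percentile 0.234.

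The highest mean correlation was that of olmf4l1, an olfactomedin family gene, at 0.488, with 0.599 in the uninjured library, then 0.452 and 0.377 at 1 dpi, 0.545 at 2 dpi, followed by 0.462 and 0.492 at 3 dpi. Next came ENSDARG00000086947 (0.456) and ENSDARG00000005419 (0.399), which have no symbol in the name table. FGL2, a secreted fibrinogen-like protein, followed at 0.386, then marcksl1b, a regulator of the actin cortex, at 0.377 and sdc4, a cell surface proteoglycan, at 0.349. The chemokine gene ccl35.2 had 0.336, the ferritin heavy chain gene fthl27 had 0.322, the macrophage gene MFAP4 (ENSDARG00000090783) had 0.299 and the peptidoglycan recognition gene pglyrp5 had 0.296. All 10 were above 0 in all 6 libraries. The lowest means were those of the gelatinase gene MMP9 (-0.204), npsn (-0.204), EPX (ENSDARG00000019521, -0.197), the chemokine receptor gene CCR9 (-0.183) and mmp13a (-0.165).

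**Figure D4:**
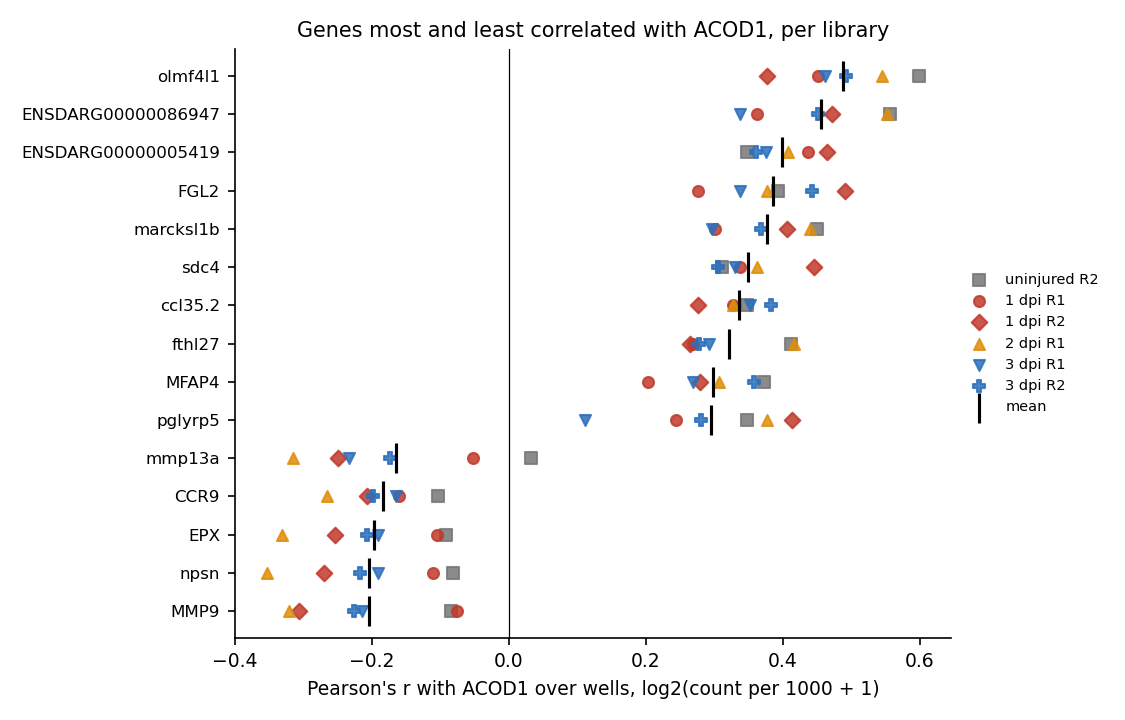
Pearson's r with ACOD1 over the wells of each library for the 10 genes with the highest and the 5 with the lowest mean, with symbols for the 6 libraries and a bar for the mean. The 10 highest are above 0 in each library, and mmp13a alone among the 5 lowest crosses 0, at 0.0331 in the uninjured library.

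Without granulocyte-gated wells most of the positive correlations stayed close and most of the negative ones came near 0. There 7 of the 10 genes were again among the 10 highest, and olmf4l1 had 0.467, ENSDARG00000005419 had 0.433 and ENSDARG00000086947 had 0.425. Outside the gate mmp13a had 0.0197, MMP9 -0.0481 and EPX -0.0111, while CCR9 was the lowest of 2086 genes at -0.143. The gate removed the wells rich in EPX and npsn, so the EPX value follows from the gate, and npsn had no value there. Within the 368 macrophage-gated wells, an alternative added after seeing the data, 8 of the 10 were among the 10 highest, led by ENSDARG00000005419 at 0.428, with FGL2 at 0.332 and olmf4l1 at 0.326. Within granulocyte-gated wells 0 of the 10 were among the 10 highest, over 5 libraries and 219 wells. There FGL2 and ccl35.2 had no value, and ENSDARG00000086947 was 13th of 1451 genes at 0.226. The value was 0.173 for olmf4l1, while MFAP4 (-0.001) and pglyrp5 (-0.115) were below 0. The 5 genes lowest over all wells were also below 0 within the gate. There mmp13a had -0.227, 1450th of 1451 genes, and MMP9 had -0.169, 1443rd. CCR9 had -0.119, EPX -0.097 and npsn -0.044.

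To ask which other genes differ between cells with and without ACOD1, wells with an ACOD1 transcript before thinning were summed per library and set against wells without one, with the library as a block, and fitted with edgeR's quasi-likelihood method (genes called at a Benjamini-Hochberg adjusted p under 0.05 over all genes fitted). ACOD1 and mmp13a were left out. ACOD1 was chosen partly for its relation to other genes in these same wells, so the calls restate that relation. They are given as descriptions, with differences and SE but no p-values, and support nothing. In all wells 245 of 1639 fitted genes were called (14.9%), 118 higher (7.2%) and 127 lower (7.75%) in ACOD1-positive wells, with a median difference over all genes of -0.0005. ACOD1-positive wells were deeper before thinning, with median totals of 4072 to 11981 against 2303 to 8427 in ACOD1-negative wells. When wells were assigned by their thinned counts, 254 genes were called, 179 of them among the 245.

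Of 14 macrophage genes fitted over all wells, 7 were called higher in ACOD1-positive wells, 1 was called lower and 6 were not called, beside 7.2% of all genes called higher. Their median difference was 0.62 on the log2 scale, and 5 to 7 were called higher when 1 library was left out. MFAP4 (ENSDARG00000090783) was higher by 1.57 (SE 0.16), with 1.13 transcripts per 1000 in ACOD1-positive wells against 0.359 in ACOD1-negative wells, in 6 of 6 libraries. The scavenger receptor gene marco was higher by 0.98 (SE 0.26), and was no longer called without replicate 2 of 3 dpi. The actin bundling gene LCP1, which all leukocytes use, had a difference of -0.49 (SE 0.12). Of 8 fitted granulocyte genes 6 were called lower, beside 7.75% of all genes, with a median of -1.31. The log2 difference was -2.05 for npsn (SE 0.47), -2.08 for EPX (SE 0.46), -2.18 for MMP9 (SE 0.46) and -1.33 for scpp8 (SE 0.31). It was -1.29 for ALOX5AP, needed for leukotriene synthesis (SE 0.29), and -1.21 for the protease gene adam8a (SE 0.35). Of these, npsn, EPX and scpp8 are gate genes, so this repeats the gate's own contrast. Without replicate 1 of 2 dpi, and without either 3 dpi library, npsn, EPX and MMP9 were no longer called. The number of granulocyte genes called lower lay between 0 and 6 when 1 library was left out. It was 1 of 9 with wells thinned to 2000 transcripts and 2 of 12 with no filter on low counts. Of all genes, 168 of 2617 were called lower at 2000 transcripts and 56 of 20232 with no filter.

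Outside the granulocyte gate 142 of 1258 fitted genes were called (11.3%), 68 higher (5.41%) and 74 lower (5.88%), and the median over all genes was -0.03. Of the 142, 101 were also called over all wells, which is 71.1% of these calls and 41.2% of the 245. Median totals were 4078 to 12907 in ACOD1-positive wells against 2509 to 7532 in ACOD1-negative wells. With wells assigned by thinned counts 207 genes were called, 108 of them among the 142.

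Genes named here outside the gate were called, with an average log2 CPM of at least 5 and the same direction in every library. Among them the largest higher values in ACOD1-positive wells were those of pglyrp5, olmf4l1 and FGL2, with ENSDARG00000005419 (2.04) close to them. The transcript of pglyrp5 had 0.262 transcripts per 1000 in ACOD1-positive uninjured wells, 0.729 and 0.944 at 1 dpi, 0.575 at 2 dpi, followed by 0.291 and 0.321 at 3 dpi. In ACOD1-negative wells it had 0.0316, then 0.158 and 0.0556, 0, and 0.119 and 0.115. The 2 groups did not overlap, and the log2 difference was 2.13 (SE 0.31). For olmf4l1 the ACOD1-positive wells had 1.49 to 3.14 per 1000 and the ACOD1-negative wells 0.271 to 0.916, a difference of 2.07 (SE 0.15). FGL2 had 0.574 to 1.12 per 1000 in ACOD1-positive wells and 0.0947 to 0.273 in ACOD1-negative wells, a difference of 2.05 (SE 0.23).

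Further genes called higher outside the gate included a cytokine, a sugar transporter and a fatty acid receptor. The gene m17, an interleukin 6 family cytokine of fish, was higher by 1.78 (SE 0.23), and SLC2A6, a sugar transporter of lysosomal membranes, by 1.84 (SE 0.21). GPR84, a receptor for medium-chain fatty acids, had 0.687 per 1000 in ACOD1-positive uninjured wells, 1.06 and 1.25 at 1 dpi, 0.83 at 2 dpi, followed by 0.573 and 0.955 at 3 dpi. In ACOD1-negative wells it had 0.179, then 0.368 and 0.222, 0.212, and 0.167 and 0.365, again without overlap. The difference for GPR84 was 1.59 (SE 0.19) outside the gate and 0.50 (SE 0.16) over all wells. Over all wells it was no longer called without the uninjured library or either 1 dpi library, nor by DESeq2. Granulocyte-gated wells themselves held 1.58 GPR84 transcripts per 1000, against 0.977 in macrophage-gated wells. The gene sinup was higher by 1.91 (SE 0.32), and 5 identifiers without a symbol by 1.55 to 2.04.

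Genes called lower in ACOD1-positive wells outside the gate included markers of epithelium-like cells. CCR9, which is on no epithelial list here, had a difference of -1.58 (SE 0.19). It had 0.0769 to 0.47 transcripts per 1000 in ACOD1-positive wells and 0.253 to 1.39 in ACOD1-negative wells, lower in 6 of 6 libraries. By class CCR9 had 1.65 per 1000 in granulocyte-gated, 0.526 in ungated and 0.231 in macrophage-gated wells. Within macrophage-gated wells its correlation with ACOD1 was -0.006. The junction gene f11r.1 had -1.72 (SE 0.28), epcam, an epithelial adhesion gene, -1.98 (SE 0.37) and the granulin gene grna.2 -3.21 (SE 0.72). These 3 are all the fitted members of the metaphocyte list (metaphocytes are epithelium-like cells of zebrafish skin that carry mpeg1). The gene grna.2 was no longer called when any of the 5 injured libraries was left out. Of 7 keratinocyte genes epcam and the epithelial gene icn were called lower, icn at -1.44 (SE 0.23). Among all genes fitted outside the gate 5.88% were called lower. The acyl-CoA synthetase gene ACSBG1 had -1.71 (SE 0.26), FAM83C -1.87 (SE 0.40), CPLX4 -1.69 (SE 0.26), sgcg -1.56 (SE 0.33) and COL9A2 -1.44 (SE 0.29).

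The summed levels of these other cell types moved with the split, apart from keratinocyte genes in 1 library. Outside the gate, the 6 metaphocyte genes together gave 0.0656 to 0.903 transcripts per 1000 in ACOD1-positive wells and 0.222 to 3.76 in ACOD1-negative wells. The 23 keratinocyte genes gave 1.93 to 5.28 in ACOD1-positive wells and 1.17 to 13.1 in ACOD1-negative wells, and the 29 macrophage genes 7.52 to 14.0 and 5.49 to 11.4. Keratinocyte genes were lower in ACOD1-positive wells except in replicate 2 of 1 dpi, with 2.02 against 1.17. The part of cell type in the differences of the preceding paragraphs was not tested. Of 14 fitted macrophage genes 4 were called higher outside the gate, beside 5.41% of all genes, with a median of 0.31. They were 2 of the MFAP4 identifiers on the list, the cathepsin S gene ctss2.1 and the transporter gene SLC7A7. Leaving out 1 library gave 2 to 4. MFAP4 (ENSDARG00000088745) was no longer called without the uninjured library, and SLC7A7 without the uninjured library, replicate 1 of 2 dpi or replicate 1 of 3 dpi, nor by DESeq2.

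**Figure D5:**
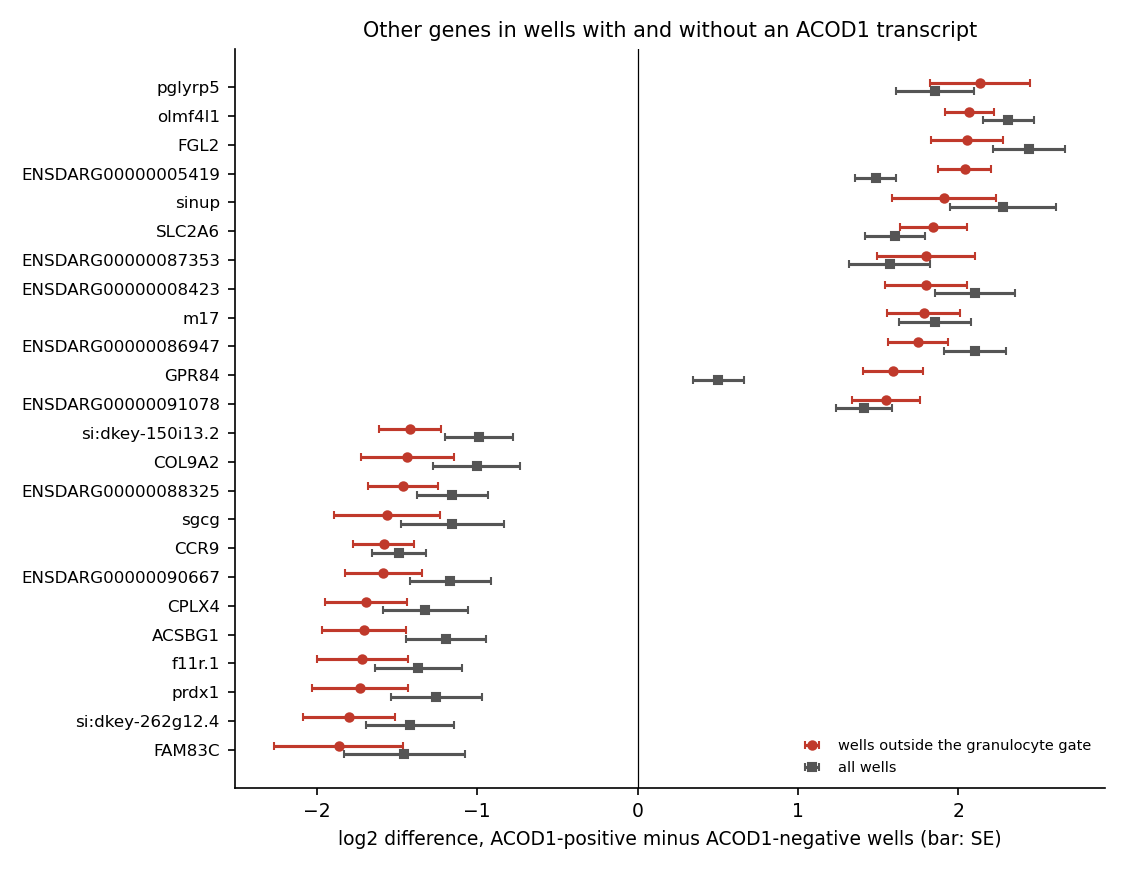
Log2 difference between ACOD1-positive and ACOD1-negative wells (points, with SE bars) outside the granulocyte gate, beside the same genes over all wells. The genes are those with the largest called differences outside the gate, in either direction, that met a rule. By that rule each had an average log2 CPM of at least 5 and the same direction in every library. The called genes grna.2 and epcam, with larger differences, missed the rule and are not shown. All genes shown keep their direction and were called in both. The difference of GPR84 is 1.59 outside the gate and 0.50 over all wells.

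Of 12 fitted genes of the inflammatory response, 5 were called higher and 0 lower in ACOD1-positive wells outside the gate. Of all genes fitted there, 5.41% were called higher and 5.88% lower. The median difference of the 12 was 0.61. The list was chosen with earlier results of these wells known, and ccl35.2 is among the 10 genes most correlated with ACOD1, so the count is a description only. Beside m17 and GPR84 these were ccl35.2 (1.03, SE 0.15), TNFAIP3 (0.74, SE 0.15) and nfkbiaa (0.86, SE 0.13), the last 2 being inhibitors of NF-kB signalling that are themselves induced by it. The transcript of nfkbiaa had 1.19 to 2.86 per 1000 in ACOD1-positive wells and 0.505 to 1.48 in ACOD1-negative wells. The cytokine gene tnfb differed by 0.18 (SE 0.19) and the transcription factor gene CEBPB by 0.12 (SE 0.13), and neither was called. Leaving out 1 library at a time gave 5 or 6 members higher. Wells assigned by thinned counts gave 8, wells thinned to 2000 transcripts 7, and no filter on low counts 11 of 32. Of all genes, wells assigned by thinned counts gave 113 of 1368 higher, 2000 transcripts 161 of 2000, and no filter 390 of 19930.

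Of the 33 TCA cycle identifiers 9 passed the filter on low counts outside the gate. None of the 9 was called, beside 11.3% of all genes, with a median of 0.13. With no filter 28 were fitted, and 2 were called higher and 0 lower, beside 390 higher and 40 lower of 19930 genes in all. The isocitrate dehydrogenase gene IDH2 differed by 0.13 (SE 0.22), the malate dehydrogenase gene MDH2 by 0.33 (SE 0.28) and the succinyl-CoA ligase gene SUCLG1 by 0.47 (SE 0.30). Subunits of succinate dehydrogenase were below the filter in these sums.

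Of 10 fitted NRF2 and oxidative stress genes 1 was called lower outside the gate, beside 5.88% of all genes, and none higher, with a median of -0.02. With wells assigned by thinned counts 1 was called higher and 0 lower, at 2000 transcripts 1 higher and 1 lower, and with no filter on low counts 4 higher and 1 lower. The gene called lower was the peroxiredoxin gene prdx1 (ENSDARG00000058734), at -1.73 (SE 0.30), while the identifier named PRDX1 (ENSDARG00000025350) differed by 0.26 (SE 0.19). NFE2L2, which encodes NRF2, differed by -0.27 (SE 0.17) and the cystine transporter gene slc7a11 by 0.54 (SE 0.40). Of 23 fatty acid oxidation genes 2 passed the filter and neither was called. Of 4 fitted NADPH oxidase genes NCF1, a cytosolic subunit, was called higher, by 1.09 (SE 0.19), beside 5.41% of all genes. The gene cybb, the catalytic subunit, differed by 0.70 (SE 0.25) and was not called. NCF1 is also the only called gene of 3 fitted on the granulocyte list there. Of 6 glycolysis genes 0 were called, 2 were called higher with wells assigned by thinned counts, 2 at 2000 transcripts, and 4 of 12 with no filter on low counts. Of all genes outside the gate, wells assigned by thinned counts gave 113 higher and 94 lower of 1368. At 2000 transcripts it was 161 and 121 of 2000, and with no filter on low counts 390 and 40 of 19930. No skeletal muscle or connective tissue gene passed that filter, though in the uninjured library the muscle genes together gave 18.4 transcripts per 1000 in ACOD1-positive wells and 16.7 in ACOD1-negative wells.

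Within granulocyte-gated wells 0 of 219 fitted genes were called by edgeR (0%) and 0 by DESeq2, with 11 at an unadjusted p under 0.05. This split had 8 to 28 ACOD1-positive and 8 to 55 ACOD1-negative wells in each of 5 libraries. MMP9 differed by -0.37 (SE 0.13), npsn by -0.01 (SE 0.14) and EPX by -0.13 (SE 0.14). The difference of the split between the gates was fitted as an interaction on the same wells, added after seeing the data, and 8 of 661 genes were called (1.21%), again as a description. GPR84 was the one called in each fit that left out a library: its split in granulocyte-gated wells minus that in the other wells was -1.76 on the log2 scale (SE 0.35). Within the gate GPR84 had 1.15 and 1.12 per 1000 in ACOD1-positive wells at 1 dpi, 1.43 at 2 dpi, followed by 1.87 and 1.93 at 3 dpi, against 2.38 and 1.5, 1.12, and 1.69 and 1.96 in ACOD1-negative wells.

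The genes around ACOD1 in metabolism were also followed between 3 and 1 dpi, in a fit of all 6 libraries with 2 residual degrees of freedom. It called 1253 of 13899 genes (9.02%), 771 higher (5.55%) and 482 lower (3.47%) at 3 dpi, with a median of 0.28 over all genes. With library size alone in place of TMM it called 73, 23 higher and 50 lower, and DESeq2 called 281 higher and 283 lower. Of 27 tested TCA cycle genes 4 fell and none rose, with a median of -1.03. An identifier named SDHD, a subunit of succinate dehydrogenase, fell by 2.45 (SE 0.55, edgeR adjusted p = 0.00307). More than 1 identifier on the list carries that name. SUCLG1 fell by 2.13 (SE 0.52) and pdha1a, of pyruvate dehydrogenase, by 1.68 (SE 0.54). Per 1000 transcripts the 33 TCA cycle identifiers together gave 2.61 in the uninjured library, then 3.39 and 3.14 at 1 dpi, 2.33 at 2 dpi, followed by 1.83 and 1.31 at 3 dpi, so the 3 dpi libraries were the lowest. Of 21 tested fatty acid oxidation genes ACAA2 and CPT2 fell, with a median of -1.42.

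Markers of several other cell types moved over the same interval, in which 5.55% of all 13899 genes rose and 3.47% fell. None of 18 NRF2 and oxidative stress genes was called, and 1 of 7 NADPH oxidase genes fell. Of 30 inflammatory genes tnfa and nfkb2 fell and 1 of the identifiers named NOS2 rose. Of 25 macrophage genes 4 fell and 1 rose. Only 1 of 12 granulocyte genes and 1 of 12 glycolysis genes rose, near the share of all genes. Those that rose on other lists were 5 of 21 keratinocyte, 5 of 6 metaphocyte, 5 of 19 skeletal muscle and 8 of 18 connective tissue genes. Skeletal muscle genes were scarce at both times, together 0.0602 and 0.0663 transcripts per 1000 at 1 dpi and 0.235 and 0.2 at 3 dpi. In the uninjured library they gave 17.6. Connective tissue genes gave 0.0526 and 0.0765 at 1 dpi, 0.705 and 0.42 at 3 dpi, and 3.89 in the uninjured library. Without the uninjured library 11 skeletal muscle and 14 connective tissue genes passed the filter on low counts. Macrophage genes gave 6.54 and 6.17 transcripts per 1000 at 3 dpi and 12.8 and 11.9 at 1 dpi, and the part of this change in the TCA cycle result was not tested. The calls depended on the libraries used: with the 4 libraries of 1 and 3 dpi alone no gene was called at all (2557 at an unadjusted p under 0.05), and leaving out 1 library gave 18 calls (without replicate 2 of 1 dpi) to 3850 (without replicate 1 of 3 dpi), with 0 to 17 TCA cycle genes lower.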

How the data were processed

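Transcripts of single sorted cells were counted by SORT-seq, a plate form of CEL-Seq2 that tags molecules and reads 3' ends, per the labels' protocols. The deposited values are expected counts, that is, estimated transcript numbers per gene and well, made by the authors with BWA and the Zv9 genome build per the submitters' processing notes; how reads were counted and which annotation was used is not stated in these sources. Counts were rounded to whole numbers and spike-ins (1.19% to 16.1% of a library) removed. Well numbers are plate positions and tie no cells across libraries. Gene names came from a table that matched 19001 of 25130 identifiers (75.6%), often with the human symbol. RefSeq lists a zebrafish acod1 with the synonym irg1, which these tables do not tie to the ACOD1 identifier.

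Wells of at least 500 transcripts were kept. Thinning drew 1000 transcripts per well without replacement. Intervals are Wilson (shares) or exact Poisson (sums) at 95% and cover counting error only. Fits used edgeR 4.0.16 in R 4.3.3 (TMM, filterByExpr, robust quasi-likelihood), with DESeq2 1.42.0 as an alternative, and were tested on simulated data. Splits needed at least 5 wells in each arm of a library and had 5 residual degrees of freedom (4 in the granulocyte gate, 12 for the interaction). Cells are not replicates, so wells were summed per library and arm. The ACOD1 splits use the wells and relation by which ACOD1 was chosen, so their calls are descriptions. P-values measure the spread between these libraries, which may be technical. No doublet caller was run, as each well took a sorted event, and wells over 50000 transcripts were left out as an alternative. Replicate plates of the same time were not repeats of 1 library: their counts gave a chi-square of 11.7 (1 dpi) and 19.1 (3 dpi) for each degree of freedom.

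ACOD1, the gates and the gene lists were chosen with earlier results of these data known. Genes are named by rule: the 10 highest and 5 lowest correlations, up to 12 called genes per split and direction with an average log2 CPM of at least 5 and the same direction in every library, up to 4 called genes of a list, and MMP9, npsn, EPX, scpp8, GPR84, mmp13a, tnfa, ARG2 and NAMPT as context. Members of lists given with values beyond these, and irg1l, were chosen after their values were seen. Alternatives covered scaling, tool, filter, thinning depth, assignment of wells, gate threshold, large wells and each library left out. A result for 1 gene is not reported here.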

Additional observations from a re-analysis of the deposited data

Results flagged for a closer look

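Wells under 500 transcripts, which entered no comparison, also held ACOD1. They held 26 and 22 ACOD1 transcripts at 1 dpi, 6 at 2 dpi, then 20 and 8 at 3 dpi, each above the 3 that a count of 0 allows, and 3 in the uninjured library. In CPM of those wells this is 1574 and 1087 at 1 dpi, 1011 at 2 dpi, 1171 and 575 at 3 dpi, and 310 in the uninjured library. The kept wells had 1765 and 1744, 1607, 807 and 676, and 377 CPM, in the same order. Whether these are shallow cells or RNA free in the plate was not tested.

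For 8 genes the ACOD1 split differed between granulocyte-gated and other wells by the call on that difference (edgeR, adjusted over 661 genes); the wells are those by which ACOD1 was chosen, so this is a description. The log2 difference was -1.76 for GPR84 (SE 0.35), called in all 5 fits that left out a library. It was -1.82 for ENSDARG00000005419 (SE 0.40, 4 of 5 fits), -1.11 for ENSDARG00000031153 (SE 0.27, 4 of 5), 1.40 for CCR9 (SE 0.32, 3 of 5), 1.00 for ENSDARG00000003041 (SE 0.25, 2 of 5) and 2.88 for calm1b (SE 0.67, 2 of 5). It was -2.56 for pglyrp5 (SE 0.70, 1 of 4 fits that could test it) and 2.51 for cfl1l (SE 0.67, none of 4).
No group had 4 or more libraries, so no library could be checked against its group for standing apart.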

How the results depend on the processing

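No named gene that was called reversed its direction under the alternatives. Of 1383 values for 101 genes and splits, 1309 kept their side of the threshold, 71 lost it and 3 gained it. A change of sign in a named gene that was not called at first was counted among the 1309, not as a reversal. Over all wells the ACOD1 split called 245 genes. Leaving out a library gave 160 to 271. No filter on low counts gave 408 (352 higher and 56 lower), with 143 of the 245 among them. Outside the granulocyte gate it called 142. Leaving out a library gave 95 to 154, thinning to 2000 transcripts gave 282 (121 of the 142) and no filter 430 (81 of the 142). Of the 430, 390 were higher and 40 lower. Within the gate each alternative gave 0. The difference of the split between the gates called 2 to 10 genes when a library was left out. The comparison of 3 with 1 dpi was the least stable: 1253 genes became 662 with RLE factors, 73 with library size alone, 564 with DESeq2, 707 with wells thinned to 1000 transcripts, 0 with the libraries of 1 and 3 dpi only, and 18 to 3850 when a library was left out. The causes were not tested.

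With a replicate block the same comparison called 1965 genes (1124 higher and 841 lower at 3 dpi), and 9 TCA cycle genes lower. The replicate numbers are not shown to pair the libraries: there are 2 pairs, and the deviations of same-numbered libraries correlated at 0.24 over 13901 genes.

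The log2 CPM difference of ACOD1 between 3 and 1 dpi, -1.25, was -1.44 and -1.42 with wells thinned to 500 and 1000 transcripts. That of injured minus uninjured, 1.76, was 0.22 without wells over 50000 transcripts, and 0.42, 0.27 and 0.28 with thinning to 500, 1000 and 2000. It was 1.59 to 1.80 when a library was left out. The difference in the share of wells, -27.6 points, was -30.8 with no thinning, -21.6 at 500 and -31.3 at 2000. The mmp13a difference, -5.75 points, was -15.0 with mmp13a read from thinned counts. Within granulocyte-gated wells 0 of the 10 most correlated genes were among the 10 highest, and FGL2 and ccl35.2 had no value there.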
